A study of Homo sapiens with 71 samples.

Results

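MIWI and MROH are codes for 2 of the 16 surface waters to which human HepG2 hepatoma cells were exposed, and they are described here together because they were chosen by the number of genes called against the controls, which was lowest for them. The members are the 3 MIWI and 4 MROH libraries, 7 of the 71 libraries of the series, taken as the mean of the 2 site means and set against the 8 control libraries. That choice used the comparisons with the controls, so values and calls against the controls are a description of the fit and support nothing further. The differences between MIWI and MROH, and between the pair and the other 14 waters, hold no control library and were tested. These tests are not independent of the choice, since values of MIWI and MROH entered it.

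HepG2 is an established line of liver tumour cells that still makes many hepatocyte proteins. Pooled flasks of cells were divided over dishes, which were grown for 72 hours and then held for 48 hours in medium of which 75% was water. In the site groups this was field water passed through a 0.7 µm filter, and in the control group it was purified water. All groups shared the cell line, the medium, its serum and antibiotics, and the added normocin. Each site was a single grab sample, so the spread between libraries is that between dishes of cells and not between days or places of sampling. RNA was counted with TempO-Seq, a targeted assay in which pairs of short detector probes are joined on each transcript and sequenced. Levels are given as CPM, counts scaled to the library total after TMM adjustment. Log2 values come from edgeR, with standard errors (SE), and a gene is said to be called where the Benjamini-Hochberg adjusted p of edgeR's quasi-likelihood test was under 0.05.

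Several of the genes named below belong to well-studied liver cell pathways. YAP is a transcriptional co-activator held in check by the Hippo kinases, and with TEAD DNA-binding proteins it turns on genes such as ANKRD1, CCN2 and CCN1 when cells spread or are under tension. Metallothioneins are small cysteine-rich proteins that bind zinc, copper and cadmium, and their genes are switched on by the zinc-sensing factor MTF1. HSPA5 is the main chaperone of the endoplasmic reticulum, and ATF4 is the transcription factor of the integrated stress response.

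The stretches of 250 bases before the RefSeq start of CCN2 and HSPA5 are shown because both genes lay among those called lower than in the controls, and each holds letters known from its pathway. They are taken from RefSeq on GRCh38.p14 and were looked up after the values were seen, for 6 genes of which 3 had an entry. The stretch of the third, ANKRD1, lies largely in the 5′ UTR of that gene in GENCODE 29 and is not shown. Each is written 5′ to 3′ along the gene's strand, the minus strand for both, with the matches in capitals.
CCN2, chr6:131951373-131951622: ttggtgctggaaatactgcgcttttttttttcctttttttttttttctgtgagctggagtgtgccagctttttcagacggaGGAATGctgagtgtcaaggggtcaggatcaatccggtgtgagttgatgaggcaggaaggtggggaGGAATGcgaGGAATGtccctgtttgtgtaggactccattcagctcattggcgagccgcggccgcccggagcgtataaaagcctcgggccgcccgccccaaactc
HSPA5, chr9:125241344-125241593: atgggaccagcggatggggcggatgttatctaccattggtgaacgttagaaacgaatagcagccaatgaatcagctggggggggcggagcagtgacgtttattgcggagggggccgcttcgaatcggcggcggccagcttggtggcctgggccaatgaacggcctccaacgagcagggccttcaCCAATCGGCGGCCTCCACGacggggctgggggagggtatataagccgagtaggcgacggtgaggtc
The capitals in CCN2 mark GGAATG, the core letters bound by TEAD proteins, searched on both strands. CCN2 has 3 matches, starting 169, 104 and 95 bases before the RefSeq start. Of 35116 such stretches, 11.9% hold GGAATG. The capitals in HSPA5 mark the endoplasmic reticulum stress element, searched as CCAAT and CCACG with 9 bases between them on both strands, with 1 match starting 66 bases before the RefSeq start. It is found in 0.074% of the stretches. The motifs share no bases with each other in these stretches, and a match describes letters only.

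The libraries were of HepG2 character: all 13 identity markers were tested, and their summed level was 156000 to 217000 CPM in controls, 190000 to 206000 in MIWI and 167000 to 208000 in MROH. Of markers of other cells, KDR (endothelium), CCL5 (immune cells), and KRT14, KRT4 and CDH3 (squamous and basal epithelium) were at 0 in all 15 libraries. The summed endothelial list was 9.75 to 14.4 CPM in controls, 10.5 to 12.1 in MIWI and 12.2 to 15.9 in MROH. The summed immune list was mostly LYZ, at 1660 to 2230 CPM in controls, 1070 to 1630 in MIWI and 1250 to 1810 in MROH, which overlapped with the controls. Mean LYZ was 1600 CPM in controls, 1130 in MIWI and 1270 in MROH, while CD68 and CD3D had higher means in both waters than in controls. Depth differed between the groups: the controls had 8.18 to 14.5 M counts (M, mega), MIWI 3.87 to 7.59 M and MROH 3.73 to 9.88 M. Only 1 of the 7 site libraries, MROH 3, lay within the depth range of the controls, and the part of depth in the values below was not tested.

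Against the controls, 28 of 6916 features were called at the mean of MIWI and MROH, or 0.405% of those tested, with 7 higher (0.101%) and 21 lower (0.304%). The libraries VROH 2, CRMI 1 and SRMI 3, which stood apart from their sites, were left out of this fit. With all 71 libraries the count was 1, ANKRD1. With only the MIWI, MROH and control libraries it was 48. At MIWI alone 1 gene was called, ANKRD1 (0.0145%). At MROH alone 6 were (0.0868%), with ANKRD1, ATF4 and PLPPR1 lower (0.0434%) and MT1M, MT1G and AP1S3 higher (0.0434%). At an unadjusted p under 0.05 there were 850 features at the mean of the sites (12.3%), 556 at MIWI (8.04%) and 606 at MROH (8.76%). The median absolute log2 value over all features was 0.137 at the mean of the 2 sites. All 7 site libraries lay above all 8 control libraries for 17 features (0.246%) and below them for 19 (0.275%).

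By number of calls, MIWI and MROH were the 2 lowest of the 16 waters, below VROH with 9, GRMI and IHIN with 38 each, and LRMN, the highest, with 1213. The site just outside the choice was thus VROH and the one just inside was MROH. With all 71 libraries both had 0 calls, and IHIN followed with 2. By the median absolute log2 value, which does not depend on a threshold, MROH was lowest at 0.142, RRMI came next at 0.153 and MIWI followed at 0.156. RRMI had 198 genes called, so the order of the waters differed between the 2 measures. MIWI had 3 libraries where most sites had 4.

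**Figure D1:**
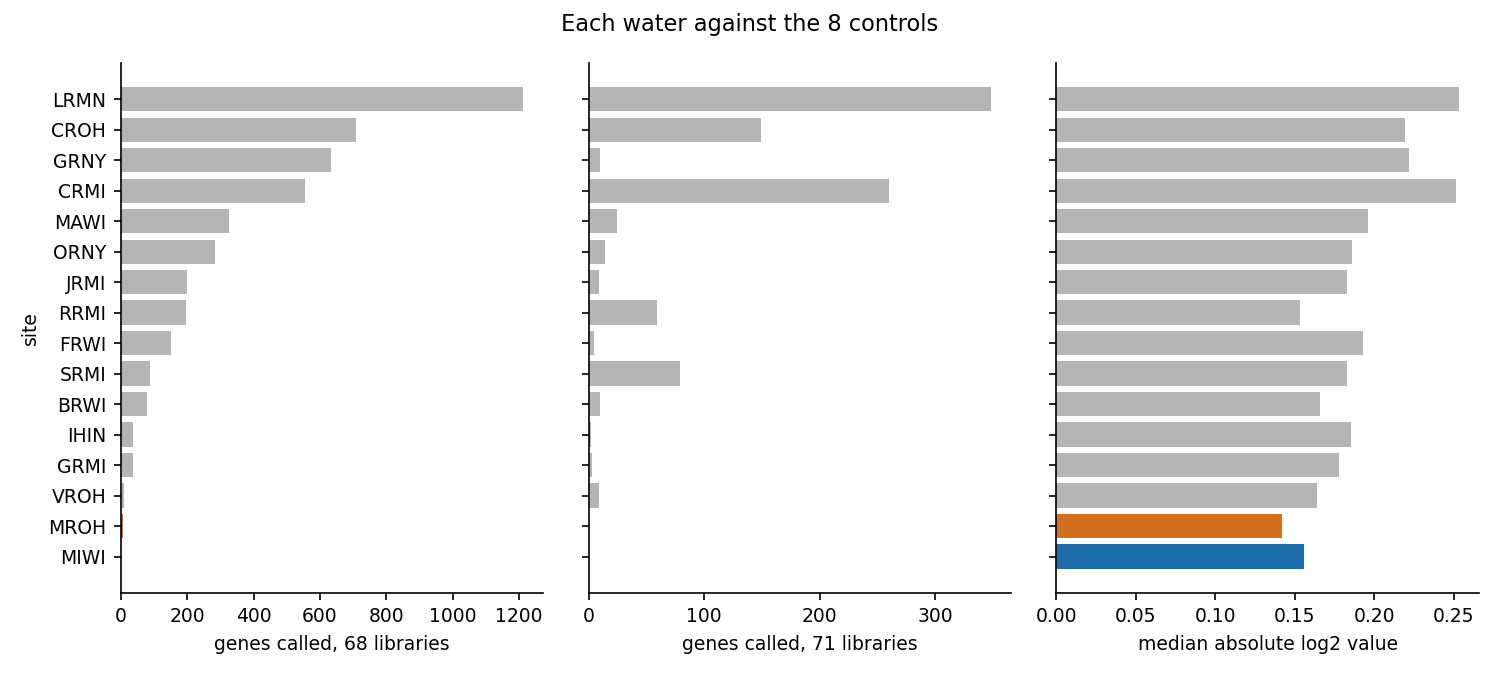
Genes called against the 8 controls in the fit of 68 libraries (left), in that of 71 libraries (middle), and the median absolute log2 value (right), for each of the 16 waters on the vertical axis. MIWI (blue) and MROH (orange) have 1 and 6 calls at left and none in the middle, and values of 0.156 and 0.142 at right, where RRMI lies between them at 0.153.

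The libraries of MIWI and MROH lay about as far from each other as libraries of a single group. The distance was taken as the SD over features of the log2 difference between 2 libraries, over features of 10 CPM or more. It had a median of 0.395 over the 12 pairs of a MIWI with a MROH library, against 0.394 within MIWI, 0.357 within MROH and 0.365 within the controls. The median was 0.415 between MIWI and control libraries and 0.389 between MROH and control libraries. These ranges overlapped widely, with 0.243 to 0.55 between the sites and 0.202 to 0.489 within the controls.

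No gene differed between MIWI and MROH by edgeR (0 of 6916, 0%, smallest adjusted p = 0.88), and 139 features had an unadjusted p under 0.05 (2.01%). DESeq2 also called 0, with 130 features at an unadjusted p under 0.05. The choice of 2 waters with few calls against the same controls favours waters close to each other, so these counts are not independent of it. Precision limits what they show. The 95% interval of the difference lay within 1 log2 unit of 0, that is within a 2-fold difference, for 5390 features (77.9%), and within a 1.5-fold difference for 3315 (47.9%). For the other features the interval reached past that bound. The median absolute difference between the sites was 0.125 log2, with a median SE of 0.231.

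The p53 target PHLDA3, an inhibitor of AKT signalling, was the 1 gene called between the sites under any alternative tried. Its level was 0.265, 1.39 and 0.184 CPM in the MIWI libraries and 1.87, 2.11, 2.68 and 2.74 CPM in the MROH libraries, with 1.25 to 2.18 CPM in controls. All 3 MIWI libraries lay below all 4 MROH libraries. The difference was -1.67 ± 0.43 log2 (SE) and did not pass adjustment in the fit of 68 libraries. Without MIWI 2, the highest MIWI library for this gene, it was -3.32 ± 0.63 log2 and passed (adjusted p = 0.0175 by edgeR). The kinase gene HUNK, picked after its values were seen, was higher in MIWI, at 2.38, 1.77 and 1.29 CPM, than in MROH, at 0.187, 0.62, 0.554 and 0.822 CPM. Its difference of 1.69 ± 0.42 log2 did not pass adjustment either. Both genes are near the lower limit of what was tested.

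**Figure D2:**
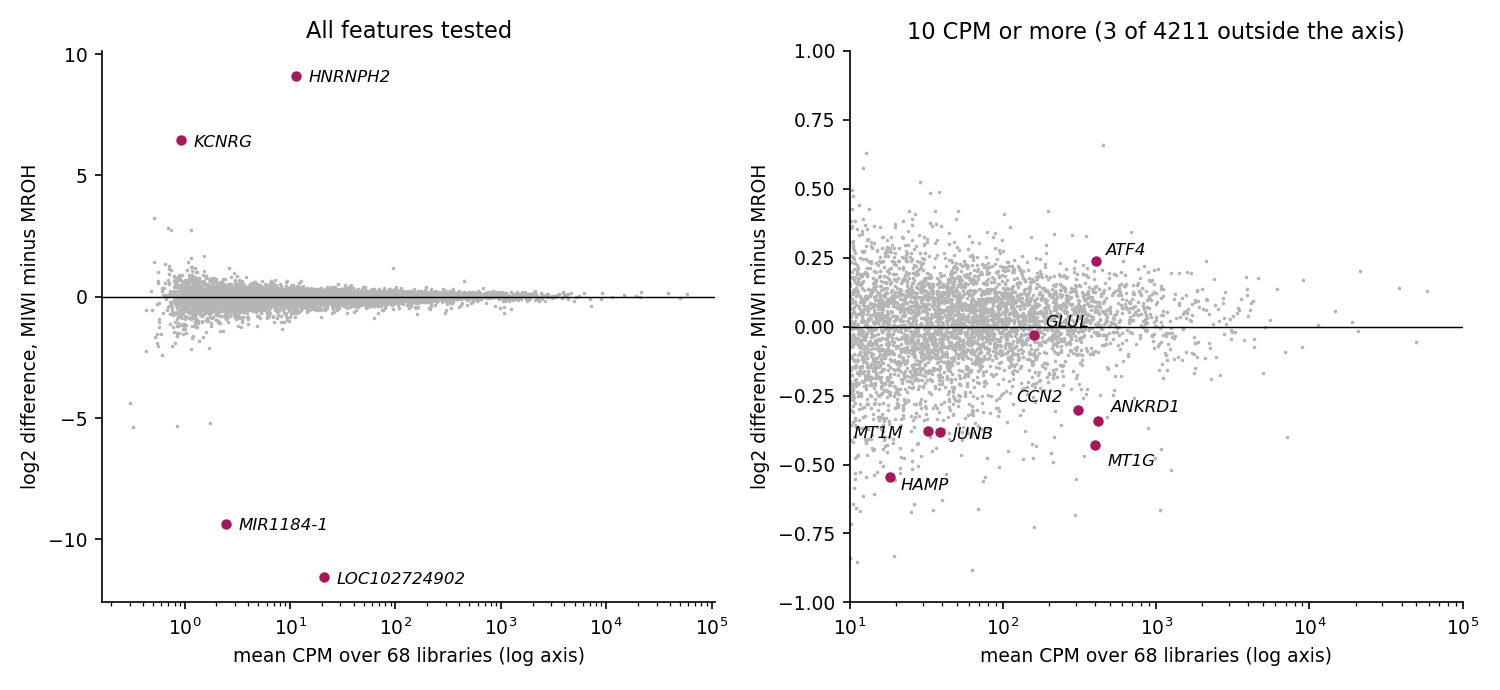
Log2 difference between MIWI and MROH against the mean level over 68 libraries (log axis), 1 point a feature, for all features (left) and for the 4211 with 10 CPM or more within 1 log2 unit (right). At right ANKRD1, CCN2, JUNB, MT1M, MT1G and HAMP lie below the line at 0 and ATF4 above it, and 3 features lie outside the axis. None of the 6916 passed adjustment.

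Of the 16 tested YAP targets, 3 were called lower at the mean of the sites, ANKRD1, CCN2 and CCN1. ANKRD1 (chr10:90912096-90921276, minus strand, GENCODE 29 on GRCh38), a cardiac ankyrin repeat protein and standard YAP target, had 369 to 683 CPM in controls, with a median of 483. It had 205, 184 and 218 CPM in MIWI and 250, 271, 268 and 235 CPM in MROH. Every site library was below every control library, and the MIWI libraries were below the MROH libraries. The log2 value was -1.08 ± 0.14 at the mean of the sites, -1.26 ± 0.20 at MIWI and -0.91 ± 0.17 at MROH. The difference between the sites was -0.34 ± 0.21 log2, with a 95% interval of -0.76 to 0.08 that includes 0.

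CCN2 (chr6:131948176-131951373), the secreted matrix protein known as connective tissue growth factor, had 258 to 485 CPM in controls with a median of 290. It had 154, 148 and 165 CPM in MIWI and 213, 191, 210 and 154 CPM in MROH. Again no site library reached the lowest control. The log2 value was -0.86 ± 0.16 at the mean of the sites, -1.01 ± 0.22 at MIWI and -0.71 ± 0.19 at MROH. CTRL 7, at 485 CPM, stood apart from the other controls at 258 to 348. CCN2 was not called with all 71 libraries. CCN1, its relative, was low, at 1.75 to 4.2 CPM in controls, 1.32, 0.759 and 0.553 in MIWI and 1.31, 1.74, 2.12 and 1.1 in MROH. Its log2 value was -1.19 ± 0.30, the groups overlapped, and its call was lost in 13 of the 15 fits that left out 1 library.

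Of 20 genes on the YAP list 16 were tested, and besides these 3 called lower 0 were called higher, against 0.304% of all features called lower. The median log2 value of the 16 was -0.32, beside 0.01 over all features. At MIWI and MROH taken singly 1 was called lower in each, ANKRD1, and the medians were -0.24 and -0.23. LATS2, a Hippo kinase that is itself a YAP target, had 14.1 to 31.9 CPM in controls, 11.4, 16.3 and 12.4 in MIWI and 14.04, 12.8, 11.8 and 11.2 in MROH, and was not called at -0.62 ± 0.17. Another 3 members lay above 0, F3 (coagulation tissue factor) at 0.30, ASAP1 (an ARF GTPase regulator) at 0.03 and NT5E (the ecto-nucleotidase CD73) at 0.35, and none of these was called. All 3 were picked after their values were seen.

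**Figure D3:**
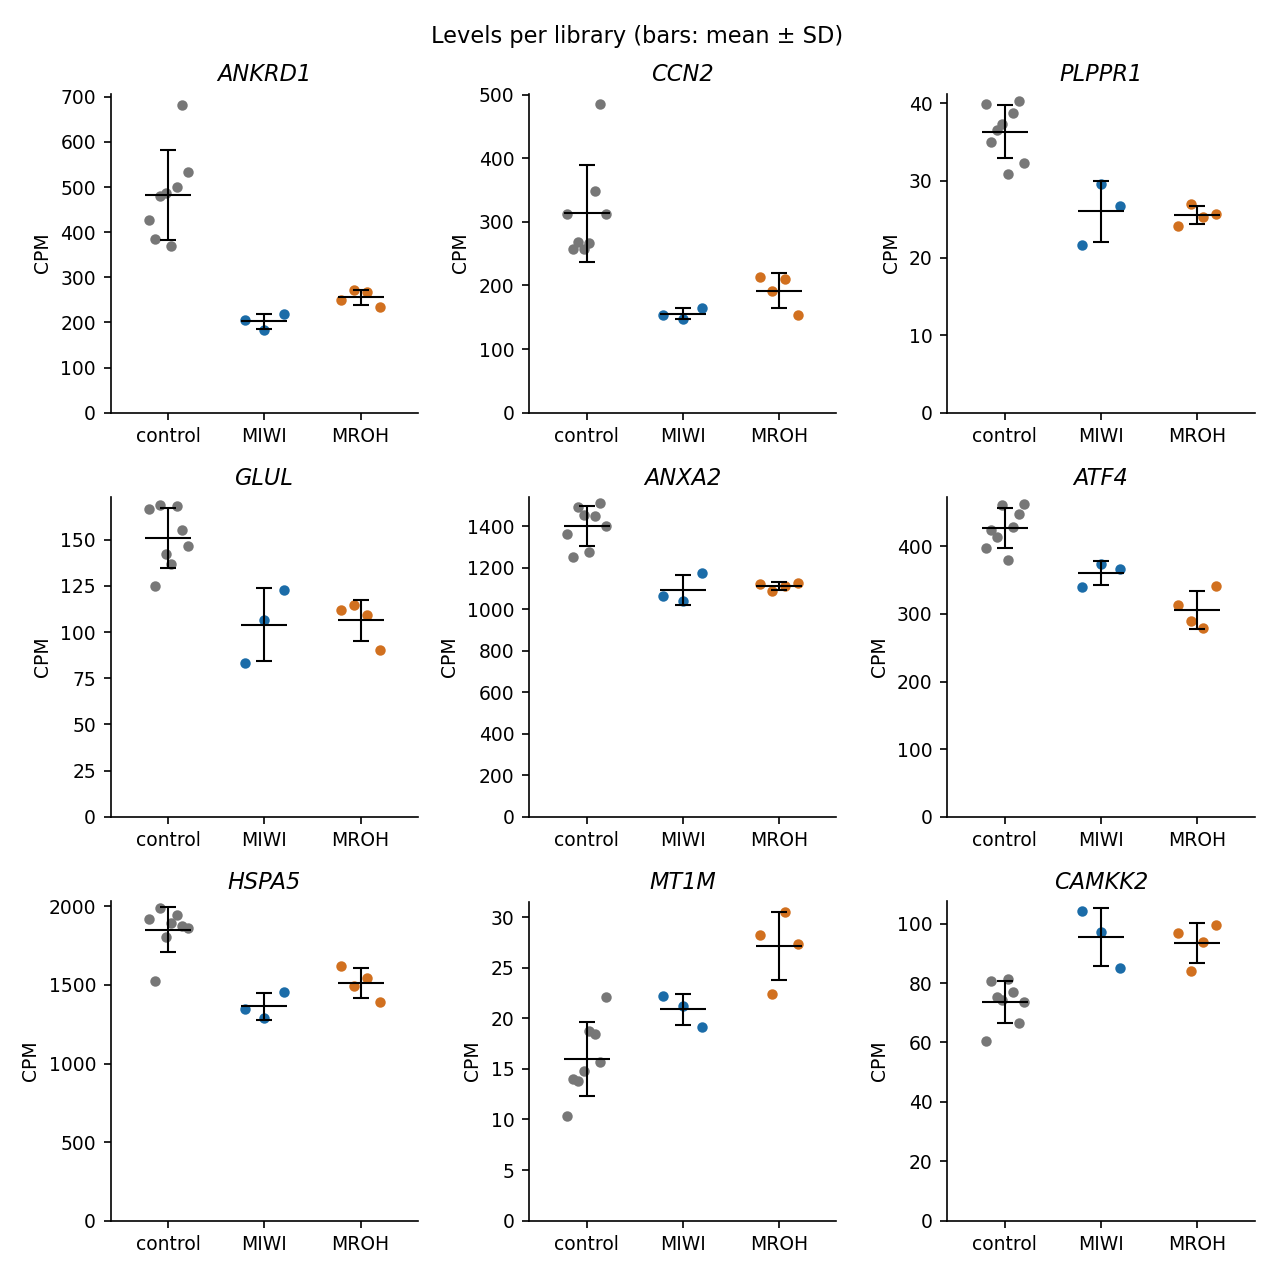
CPM in each library (points) for 9 genes in the 8 control, 3 MIWI and 4 MROH libraries, with the mean and SD of each group as bars. The site libraries lie below all controls for ANKRD1, CCN2, PLPPR1, GLUL, ANXA2 and ATF4, above all controls for CAMKK2, and overlap with them for HSPA5 and MT1M.

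Other genes called lower included an enzyme of nitrogen metabolism and several membrane and signalling proteins. GLUL (chr1:182381704-182392206), glutamine synthetase, which joins ammonia to glutamate and is a beta-catenin target in liver, had 125 to 169 CPM in controls with a median of 151. It had 83.1, 107 and 123 CPM in MIWI and 112, 114, 109 and 90.1 CPM in MROH. The sites lay below all controls and gave almost the same log2 value, -0.54 ± 0.14 at MIWI and -0.50 ± 0.12 at MROH. Their difference was -0.03 ± 0.15, with a 95% interval of -0.33 to 0.27.

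PLPPR1 (chr9:101028709-101325135), a brain-type phospholipid phosphatase-related membrane protein, had 30.8 to 40.3 CPM in controls. It had 21.7, 29.6 and 26.7 CPM in MIWI and 24.2, 27.0, 25.3 and 25.7 in MROH, all below the controls, with a log2 value of -0.49 ± 0.09. ANXA2, annexin A2, a calcium-dependent membrane-binding protein, had 1254 to 1514 CPM in controls, 1063, 1042 and 1177 in MIWI and 1123, 1088, 1111 and 1127 in MROH. Its log2 value was -0.34 ± 0.07, and the site and control libraries did not overlap. GLUL, PLPPR1 and ANXA2 lost their call when MIWI 1 was left out and with all 71 libraries, and kept it without each of the other 14 libraries.

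PIK3IP1, an inhibitor of PI3 kinase, was at -0.79 ± 0.17, with 5.26 to 8.79 CPM in controls, 4.23, 2.15 and 4.98 in MIWI and 6.55, 4.59, 4.16 and 3.01 in MROH. Only MROH 1 reached the control range. ETFA, the alpha subunit of the electron transfer flavoprotein of fatty acid oxidation, was at -0.55 ± 0.12. The log2 value was -0.41 ± 0.09 for NR2F2, the nuclear receptor COUP-TFII, and -0.40 ± 0.10 for PDZK1, the scaffold that holds the HDL receptor at the cell surface. LAP3, a leucine aminopeptidase, was at -0.34 ± 0.08, with all 7 site libraries, at 356 to 400 CPM, below all controls, at 406 to 601. HNRNPL, a splicing regulator, was at -0.35 ± 0.08, and LRP11, a receptor-related membrane protein, at -0.30 ± 0.07.

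Of the stress factors, ATF4 (chr22:39519695-39522685) had 380 to 463 CPM in controls, 340, 374 and 367 in MIWI and 313, 290, 279 and 342 in MROH. All 7 site libraries were below all 8 controls, at -0.36 ± 0.08 log2, and MROH, at -0.48 ± 0.09, lay lower than MIWI, at -0.24 ± 0.10. The difference between the sites was 0.24 ± 0.11 log2 and did not pass adjustment. Of 14 tested genes on the ATF4 response list, ATF4 itself was the only call, with a list median of -0.10. Over all features 0.304% were called lower. ASNS, asparagine synthetase, and PSAT1, an enzyme of serine synthesis, which ATF4 is known to induce, were at 0.28 and 0.29 and not called.

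HSPA5 (chr9:125234853-125241330) had 1523 to 1988 CPM in controls, with CTRL 2 at the low end and the others from 1802. It had 1344, 1288 and 1457 CPM in MIWI and 1619, 1493, 1543 and 1389 in MROH. Only MROH 2 and MROH 4 of the MROH libraries, and all of MIWI, were below CTRL 2, while MROH 3 and MROH 1 were above it. The log2 value was -0.37 ± 0.08. HSPA5 was the only call among the 14 tested genes of the unfolded protein response, whose median was -0.12, beside 0.304% of all features called lower. JUNB, an AP-1 transcription factor, was at 35.6 to 47.2 CPM in controls, 25.7, 17.1 and 26.7 in MIWI and 30.1, 30.9, 32.6 and 25.7 in MROH. No site library reached a control, and its log2 value of -0.61 ± 0.16 was not called.

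The metallothionein genes MT1M and MT1G had higher mean levels in MROH than in MIWI, a difference that did not pass adjustment. MT1M (chr16:56632233-56633986) had 10.3 to 22.1 CPM in controls with a median of 15.2. It had 22.2, 21.3 and 19.2 CPM in MIWI and 28.3, 22.4, 30.5 and 27.4 in MROH. The MROH libraries were above all controls, and those of MIWI overlapped with the upper controls. The log2 value was 0.76 ± 0.15 at MROH and 0.38 ± 0.17 at MIWI, and 0.57 ± 0.13 at their mean.

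MT1G (chr16:56666731-56668065) had 184 to 293 CPM in controls, 228, 285 and 217 in MIWI and 326, 307, 344 and 333 in MROH. MROH lay above every control and every MIWI library, and MIWI lay within the controls. The log2 value was 0.54 ± 0.12 at MROH and 0.11 ± 0.13 at MIWI. The difference of -0.43 ± 0.15 had a 95% interval of -0.74 to -0.12 but an adjusted p of 1 by edgeR. For MT1M the difference was -0.38 ± 0.19, and its adjusted p was also 1. Of 15 genes on the list 7 were tested, and 1 was called higher at the mean of the sites (0.101% of all features were). The list median was 0.33 at the mean, 0.11 at MIWI and 0.51 at MROH. Metallothionein genes are near-identical copies of each other, so the split of reads among MT1 genes is uncertain.

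Among the higher calls, CAMKK2, the calcium-dependent kinase that activates AMPK, had 60.6 to 81.4 CPM in controls, 104, 97.3 and 85.0 in MIWI and 96.8, 84.1, 93.7 and 99.4 in MROH. All site libraries were above all controls, at 0.36 ± 0.09 log2, with 0.37 at MIWI and 0.34 at MROH.

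CENPB, the protein that binds the CENP-B box of centromeres, had 45.0 to 52.98 CPM in controls, 67.7, 67.5 and 58.1 in MIWI and 64.4, 56.0, 59.6 and 59.4 in MROH, at 0.35 ± 0.08. B3GNT3 and GALNT4, both sugar transferases of the Golgi, were at 0.35 ± 0.09 and 0.34 ± 0.08. The B3GNT3 libraries of the sites, at 60.1 to 71.9 CPM, lay above the controls, at 45.0 to 59.0. A pair of sigma subunits of the clathrin adaptor AP-1 were called in opposite directions. AP1S3 had 7.08 to 11.8 CPM in controls, 14.8, 15.1 and 11.6 in MIWI and 15.2, 14.4, 18.2 and 15.1 in MROH, at 0.63 ± 0.14, and only MIWI 3 was within the control range. AP1S1 had 60.3 to 106 CPM in controls, 42.6, 66.4 and 62.7 in MIWI and 61.2, 71.8, 85.8 and 38.1 in MROH, at -0.54 ± 0.13, with overlap.

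A further 5 calls, KBTBD4, GPC6, MXRA7, PHLPP1 and LCN15, were all lower and fall outside the rule for named genes. Of the 28 calls, 26 were lost without at least 1 of the 15 libraries, all but ANKRD1 and CCN2, which describes the fit and is no support for them. The count at the mean of the sites was 2 without MIWI 1, the shallowest MIWI library, and 49 without CTRL 2. Counts in other lists were low, as was the share over all features (0.405%): of the 40 lists, most had 0 calls at the mean of the sites.

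**Figure D4:**
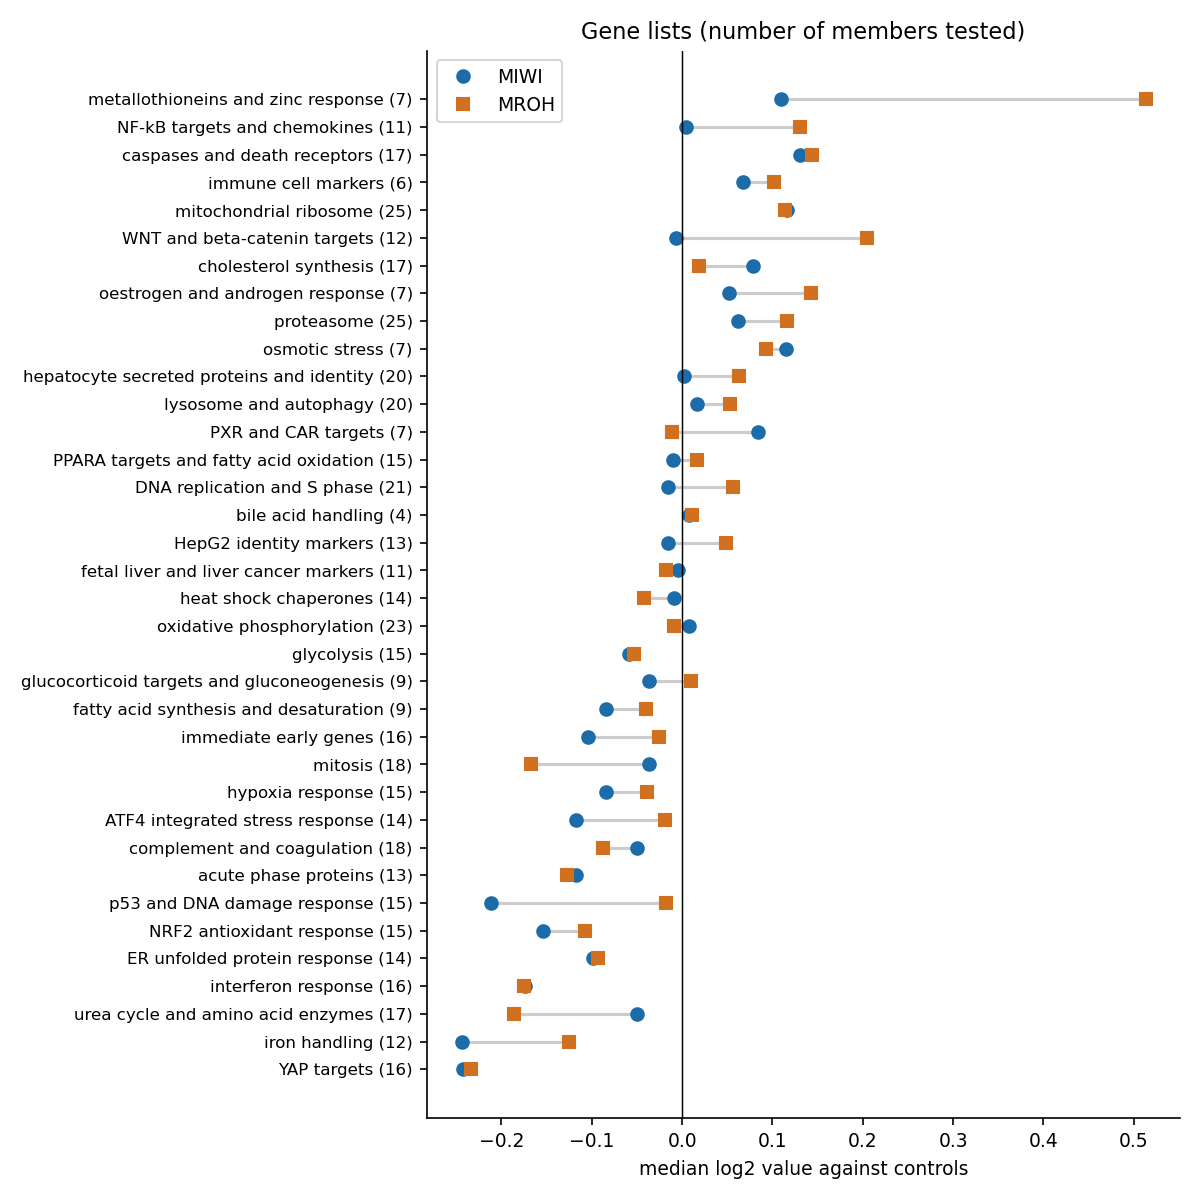
Median log2 value against the controls for each gene list with 4 or more tested members (number in brackets), at MIWI (blue circles) and MROH (orange squares). YAP targets are among the lowest in both, at -0.24 and -0.23, and metallothioneins have the widest gap, at 0.11 and 0.51.

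In many other lists no gene was called. Of all features only 0.405% were called, so counts of 0 in lists this short lie near that share and do not show that a pathway was unchanged. None of the tested members of the lists for NRF2 targets (15), AHR targets (2), PXR and CAR targets (7), hypoxia (15), cholesterol synthesis (17), fatty acid oxidation (15), heat shock (14), oxidative phosphorylation (23) or the p53 response (15) was called at the mean of the sites. Their medians lay between -0.12 and 0.08. The hepatocyte proteins list had 20 of 20 tested, 0 called and a median of 0.04.

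Against the other 14 waters, 364 features differed (5.26%), 171 higher (2.47%) and 193 lower (2.79%), by edgeR. The choice of the 2 waters with the fewest calls favours values on the control side of the others, so the direction of these differences may in part be set by it. The p values below are not free of the choice. Set against the mean of the 14, not every gene went that way. ANKRD1 averaged 229 CPM at the mean of the pair, 426 over the other 14 waters and 483 in controls. The pair thus lay farther from the controls than that mean did. The 14 waters ran from 145 to 729 CPM, on both sides of the controls. Of them, 6 lay below the pair, and so farther from the controls than the pair. How many features went each way was not counted. With all 71 libraries the count was 42, and without MIWI 1 it was 68. Of the 364, 51 were called without any 1 of the 7 site libraries. Without other single libraries it was as low as 143 (MROH 4), 173 (MROH 1) and 235 (MIWI 3).

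Of the 7 tested metallothionein list genes, MT1G and MT1M were called lower than in the other waters, where 2.79% of all features were. MT1G averaged 243 CPM in MIWI and 328 in MROH against 250 to 833 in the other 14 waters, and only VROH and IHIN of those lay below MROH. The difference was -0.55 ± 0.08 log2 (adjusted p = 7.9e-05 by edgeR; 0.0304 with all 71 libraries). MT1M was -0.50 ± 0.10 (adjusted p = 0.00227 by edgeR) but did not pass with all 71 libraries (0.0611). So both genes were at or above the control level and below most other waters. BRWI, the highest, had 833 CPM of MT1G and 72.9 of MT1M. No tested member was higher, and the list median was -0.50, beside 0.01 over all features.

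GLUL was the gene with the smallest p against the other waters, at -0.58 ± 0.08 log2 (adjusted p = 3.26e-05 by edgeR). Of the 16 tested YAP targets 6 passed as lower, where 2.79% of all features did, with a list median of -0.24 beside 0.01 over all features. ANKRD1 was -0.61 ± 0.12 (adjusted p = 0.000855 by edgeR; 0.0657 with all 71 libraries) and CCN2 -0.63 ± 0.13 (adjusted p = 0.00249 by edgeR). CCN2 averaged 156 CPM in MIWI and 192 in MROH, and was lower still in CRMI, GRMI, IHIN, MAWI, ORNY and SRMI, at 117 to 154. LATS2 was -0.61 ± 0.14 (adjusted p = 0.00746 by edgeR), and lost its call without MIWI 1. The others of the 6, AMOTL2, AJUBA and GADD45A, were picked after their values were seen. None of these passed with all 71 libraries (adjusted p = 0.0586, 0.0839 and 0.268 by edgeR). AMOTL2 also lost its call without MIWI 1 and without MROH 4, and AJUBA without MIWI 2. GADD45A lost its call in 5 of the 7 fits that left out 1 site library. AXIN2, a standard beta-catenin target like GLUL, was -0.39 ± 0.08 (adjusted p = 0.00161 by edgeR). GLUL and AXIN2 were the only 2 calls, both lower, among 12 tested genes on the WNT and beta-catenin list, whose median was -0.11. Against the controls GLUL was the only call on that list, 9 of the 12 lay above 0 and the median was 0.08.

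Further genes lower than in the other waters were PEBP1, a RAF kinase inhibitor, at -0.40 ± 0.06, HBEGF, an EGF receptor ligand, at -0.46 ± 0.08, PTPRK, a receptor phosphatase, at -0.42 ± 0.07, RAB17, an epithelial trafficking GTPase, at -0.51 ± 0.09, and AKR1B10, an aldo-keto reductase, at -0.70 ± 0.13. Their adjusted p values by edgeR ran from 0.000106 (PEBP1) to 0.000431 (RAB17 and AKR1B10). With all 71 libraries PEBP1 (0.32) and PTPRK (0.225) did not pass. Genes that were higher included CAMKK2 at 0.40 ± 0.07 (adjusted p = 0.00031 by edgeR), AKAP12, a kinase scaffold, at 0.41 ± 0.07 (0.000431), and C1RL, a complement-like protease, at 0.55 ± 0.10 (0.000804). BAAT, which joins bile acids to amino acids, was at 0.37 ± 0.07 (adjusted p = 0.000804 by edgeR), LGALS3, a galectin, at 0.62 ± 0.12 (0.00177), GPD1, glycerol-3-phosphate dehydrogenase, at 0.55 ± 0.12 (0.00274), and AP1S3 at 0.54 ± 0.11 (0.00135). BAAT (0.13) and LGALS3 (0.0708) did not pass with all 71 libraries. Some of these levels were shared with other waters. GPD1 averaged 13.4 CPM in MIWI and 15.1 in MROH, beside 14.5 to 21.0 in CRMI, GRMI, IHIN, MAWI, ORNY and SRMI. In MIWI and MROH BAAT averaged 583 and 565 CPM, beside 574 to 655 in those waters. HBEGF averaged 31.8 and 28.0 CPM, beside 27.65 to 33.9. C1RL averaged 20.4 CPM in MIWI and 18.4 in MROH, beside 18.1 to 20 in the same waters. AP1S3 averaged 13.8 and 15.7 CPM, beside 12.4 to 17.3, and AKR1B10 14.7 and 13.5 CPM, beside 12.4 to 18.5. For AKAP12 the means were 80.4 and 97.35 CPM, beside 77.9 to 127.

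Several other waters had levels like those of MIWI and MROH. For GLUL the means of MAWI, ORNY, IHIN, SRMI, CRMI and GRMI, at 99.2 to 108 CPM, lay beside MIWI, at 104 ± 19.95 (SD, n = 3), and MROH, at 107 ± 11.1 (SD, n = 4). The controls followed at 151 ± 16.3 (SD, n = 8), and the other 8 waters had 185 to 244 CPM. For ANKRD1 the order was alike except for RRMI, which lay beside MROH and below the controls, with MIWI at 202 and MROH at 256 CPM, SRMI, MAWI, ORNY, CRMI, GRMI and IHIN at 145 to 201, RRMI at 285, the controls at 483 and the other 7 waters at 566 to 729. For HSPA5 the same 6 waters with MIWI and MROH were below the controls, from 1330 to 1511 CPM, and the other 8 were at or above them, from 1866 to 2381. For CAMKK2 these 8 waters were above the controls, from 92.6 (GRMI) to 114 (MAWI), and the other 8 were below them, from 47.5 to 72.2. Neighbouring sites within either set did not differ beyond their SD for GLUL. For MT1G and MT1M the waters fell in another order, with the controls lowest, MIWI and VROH next above them, and SRMI and CRMI in the upper part.

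**Figure D5:**
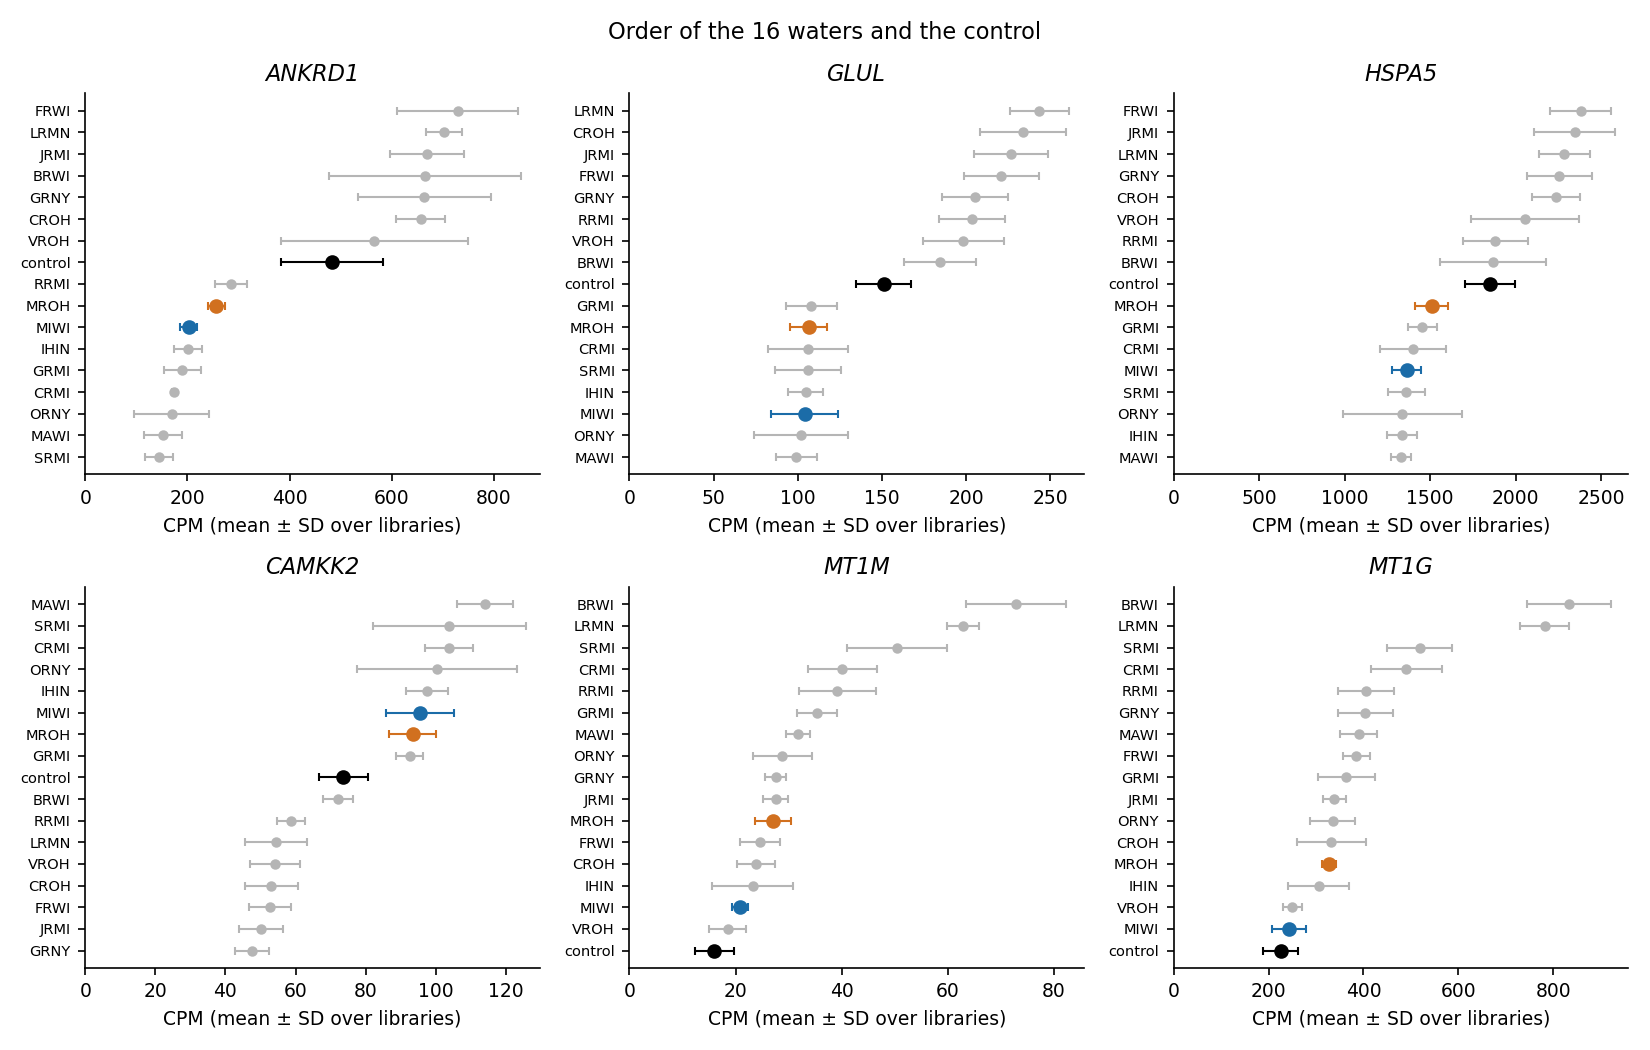
Mean CPM and SD over libraries of 6 genes in the 16 waters and the control, each panel sorted by its own level, with MIWI in blue, MROH in orange and the control in black. MIWI and MROH share 1 side of the control with SRMI, MAWI, ORNY, CRMI, GRMI and IHIN for ANKRD1, GLUL, HSPA5 and CAMKK2, and lie near the low end for MT1M and MT1G.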

How the data were processed

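The authors deposited a table of estimated read counts (expected counts), which were rounded to whole counts here. Per the submitters' processing notes, reads were processed with Salmon on GRCh38, and versions, probe positions and the step from probes to genes are not stated in the sources at hand. The table is held in part: 31012 entries, 12425 with counts, in alphabetical order up to RAI14, whose own entry is broken off and not used here. Symbols after it in the alphabet were not analysed. For MIWI, label and column numbers differ, so library numbers are those of the columns.

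Counts were fitted with edgeR 4.0.16 (limma 3.58.1, R 4.3.3; quasi-likelihood test, TMM, filterByExpr with a minimum count of 10) in 1 model with a mean for each of 17 groups. It used 68 libraries, without VROH 2, CRMI 1 and SRMI 3, kept 6916 features and had 51 residual degrees of freedom and a biological coefficient of variation of 0.199. SE is the absolute log2 value over the root of F. The step was tested on simulated data. DESeq2 1.42.0 and the other alternatives are in the closing section.

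The members, the gene lists and the fit were chosen with earlier results of these data known. An earlier analysis used all 71 libraries, which gives far fewer calls (1, 0, 0, 0 and 42 where this fit gives 28, 1, 6, 0 and 364). That leaving out the 3 libraries yields more calls was known when the fit was chosen, so both sets of counts are printed. The named genes are the called genes (up to 15 each way by p against controls, up to 10 against the other waters), up to 8 each way whose libraries do not overlap, up to 4 of each list by size, and a few fixed genes. Others are marked as picked after their values were seen. P values measure the spread between dishes, which the labels call biological replicates. Gene positions are those of GENCODE 29. Replicates of a group differed by more than sampling noise. Of the called genes, 1 is not reported here.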

Additional observations from a re-analysis of the deposited data

Results flagged for a closer look

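In 122 groups of 4 or 8 libraries checked, 14 held a library far from the others, where chance gives about 1 in 20. That rate does not apply to HNRNPH2, KCNRG, MIR1184-1 and HUNK, which were picked after their values were seen. The flagged library was CTRL 7, as the highest control, for 5 genes: CCN2 at 485 CPM (others 258 to 348), LAP3 at 601 CPM (others 406 to 488), LATS2 at 31.9 CPM (others 14.1 to 21.9), HUNK at 2.82 CPM (others 0.98 to 1.36) and PHLPP1 at 2.59 CPM (others 0.899 to 1.29). Without being flagged, CTRL 7 was also the highest control for other genes called lower, such as ANKRD1, ANXA2 and PLPPR1. It was not the highest for GLUL, ATF4 or HSPA5. CTRL 2 was the lowest control for HSPA5, at 1523 CPM (others 1802 to 1988). CTRL 5 was the highest control for AKAP12, at 97.9 CPM (others 60.6 to 78.2), and the lowest for HBEGF, at 22.8 CPM (others 33.5 to 41.1). CTRL 1 was the highest control for GPC6, at 126.7 CPM (others 91.1 to 107), HNRNPH2, at 54.2 CPM (others 0 to 3.74), and KCNRG, at 2.09 CPM (others listed at 0). In MROH, library 1 was the lowest for AXIN2, at 46.1 CPM (others 54.8 to 56.0). MROH 4 was the highest for MIR1184-1, at 54.8 CPM with the others listed at 0, and the lowest for PHLPP1, listed at 0 with the others at 0.646 to 0.749 CPM.

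The mean of MIWI and MROH differed from the mean of the other 14 sites for 364 features by edgeR. When 1 of the 7 site libraries was left out, the count was 68 to 327.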

How the results depend on the processing

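The counts of genes called depended strongly on the processing. At the mean of MIWI and MROH minus controls none of the 28 called values changed sign. Against the other 14 sites signs were compared for 40 of the 364 called genes, and none changed. At the mean of MIWI and MROH minus controls (28), DESeq2 called 66, all 71 libraries gave 1 and only the MIWI, MROH and control libraries gave 48, and leaving out 1 library gave 2 to 49. At MIWI minus controls (1), DESeq2 and no filter on low counts gave 2 each, all 71 libraries 0 and the 3 groups alone 3, and leaving out 1 library gave 1 to 3. At MROH minus controls (6), DESeq2 called 24, no filter 3, all 71 libraries 0 and the 3 groups alone 2, and leaving out 1 library gave 0 to 16. Between MIWI and MROH every setting gave 0 except that without MIWI 2 (1 gene), so the range was 0 to 1. Against the other 14 sites (364), no filter gave 215 and all 71 libraries 42, and leaving out 1 library gave 68 to 327. Size factors of the RLE type gave counts within 1.5 times for all 5 comparisons. The cause of these changes was not tested.

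The replicate numbers of MROH and control libraries do not pair them: same-numbered libraries deviated together with r of -0.312, -0.0697, -0.156 and 0.00692 over 4211 features, and no MROH library correlated best with its own number. With the replicate number as a block, in a fit without MIWI and GRMI, whose labels and columns differ in number, 11 genes were called at MROH minus controls, and the fit of the same libraries without the block, added after seeing the data, called 6. Depth limits low features most: the MIWI and MROH libraries held 3.73 to 9.88 M counts.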

Other observations

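Some groups of genes not described above lay mostly on 1 side of the controls without a call. Of 25 tested genes of the mitochondrial ribosome, 19 had log2 values above 0 at the mean of MIWI and MROH, with a median of 0.11, where 51.7% of all features lay above 0. MRPL12, picked after its values were seen, had all 7 site libraries, at 139 to 162 CPM, above all 8 controls, at 119 to 135. Of 12 tested genes of iron handling 2 lay above 0, with a median of -0.21, and FTL, the ferritin light chain, was at -0.62 ± 0.18 (SE). FTL was lower than in the other 14 waters by edgeR (-0.57 ± 0.15, adjusted p = 0.0182), a call lost without MIWI 1, without MROH 4 and with all 71 libraries (adjusted p = 0.121), and ferritin pseudogenes make its reads uncertain. HAMP, the iron hormone hepcidin, had 12.2, 18.1 and 13.8 CPM in MIWI and 24.2, 17.5, 28.4 and 15.9 in MROH, against 16.4 to 28.2 in controls.

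The 4 features LOC102724902, HNRNPH2, MIR1184-1 and KCNRG, picked after their values were seen, differed between MIWI and MROH by over 6 log2 units because they were listed at 0 in most libraries and high in a few. LOC102724902 had 107 CPM in MROH 1 and 132 in MROH 4 and was listed at 0 in the other 5 site libraries, with 0 to 108 CPM in controls. HNRNPH2 had 28.8 CPM in MIWI 2 alone of the site libraries, with 0 to 54.2 in controls. MIR1184-1 had 54.8 CPM in MROH 4 alone and was listed at 0 in all controls. KCNRG had 3.16 CPM in MIWI 2 and 1.11 in MIWI 3 and was listed at 0 in all 4 MROH libraries.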
